A study of Mus musculus with 39 samples.

Results

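Zscan4 is a family of near-identical mouse genes that lie together on chromosome 7. The 6 rows named Zscan4a, Zscan4b, Zscan4c, Zscan4d, Zscan4e and Zscan4f were taken by name from the 55487 genes of the count table and followed through all 39 libraries. Zscan4 genes encode proteins with a SCAN domain and zinc fingers. In the mouse they are known as markers of the 2-cell embryo, where they are transcribed in a burst during activation of the zygotic genome, and of a small, passing fraction of embryonic stem cells in culture. They have been linked to telomere lengthening by recombination between sister chromatids, and the double homeobox factor Dux, with Dppa2 and Dppa4 upstream of it, is known to activate them in stem cells.

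All embryos were wild type, and no age, strain or culture time was given. The 39 libraries came from 19 embryos and were made with the Smart-seq2 method, in which oligo-dT primed cDNA is amplified before sequencing. Intact embryos, lysed whole as 1 library each, numbered 5 at the 2-cell stage and 4 at the 4-cell stage. Embryos taken apart into single blastomeres, with 1 library per blastomere, numbered 5 at the 2-cell stage (10 blastomeres) and 5 at the 4-cell stage (20 blastomeres). Separated 4-cell embryos 2, 3 and 4 belonged to the labelled batch 1, with every other embryo, and embryos 6 and 7 alone to batch 2. The comparisons ask how the cluster differed between stages, whether separated embryos differed from intact ones, and how alike sister blastomeres were.

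Levels are in CPM, the counts of a gene in every 1 M counts of the library or, for a separated embryo, of its summed blastomeres. Counts per library ran from 7.16 to 9.89 M in intact 2-cell embryos, from 5.93 to 44.05 M in 2-cell blastomeres, from 2.74 to 4.19 M in intact 4-cell embryos and from 2.02 to 31.58 M in 4-cell blastomeres. Whether embryos came from separate animals was not stated, so p-values measure no more than how these embryos vary, part of which may be technical. A separated embryo is a sum of several libraries of 1 cell each, and separation and library input cannot be told apart. Nor can it be told for an intact embryo whether 1 or all of its cells held a transcript.

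In GRCm38 with the GENCODE M21 annotation the 6 genes occupy chr7:10794242-11402318, each with 4 exons. Zscan4a lies at chr7:10794242-10799057 on the minus strand and is annotated as a pseudogene. Zscan4b (chr7:10900740-10905050, minus strand) codes for 505 amino acids, and Zscan4c (chr7:11005745-11010547, plus strand), Zscan4d (chr7:11161374-11166159, minus strand) and Zscan4f (chr7:11397915-11402318, plus strand) for 506 each. Zscan4e (chr7:11306378-11310682, minus strand) is protein coding in GENCODE and a pseudogene in RefSeq. Zscan4-ps1, Zscan4-ps2 and Zscan4-ps3, which have rows of their own, lie in the same 819.9 kb. RefSeq calls them pseudogenes, as their names do, while GENCODE M21 gives each as protein coding with 506 codons.

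The transcripts of the 6 members and the 3 pseudogenes were 96.6 to 99.8% identical. The closest pairs were Zscan4f with Zscan4-ps2 at 99.8%, Zscan4b with Zscan4e at 99.7% and Zscan4c with Zscan4f at 99.6%. Of all 50-base windows of Zscan4f, 95.3% also occurred in another of the 9 transcripts, against 91.6% for Zscan4e, 90.3% for Zscan4b, 85.5% for Zscan4c, 63.6% for Zscan4a and 49.6% for Zscan4d. Zscan4d therefore had the largest share of sequence of its own among the 6. A split of counts between members is uncertain to this extent, and the sum of the 6, without the 3 pseudogenes, is given beside them. Whether reads that match several of these transcripts were counted is not known, and a sum cannot restore reads that were left out.

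The coding sequences of Zscan4c, Zscan4d and Zscan4f differed at 38 of 1518 positions. Coding bases 1032 to 1091 of the reference transcripts are shown because 6 of these positions fall there, which lets a read that covers them be assigned to 1 of the 3 genes. Capitals mark the positions that differ among the 3 genes.
Zscan4c: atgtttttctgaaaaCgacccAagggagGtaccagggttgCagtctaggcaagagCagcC
Zscan4d: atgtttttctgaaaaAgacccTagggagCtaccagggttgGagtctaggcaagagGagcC
Zscan4f: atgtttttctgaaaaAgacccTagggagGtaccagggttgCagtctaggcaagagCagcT

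The start regions of the cluster were also closely alike. RefSeq start regions (GRCm38.p6) were matched for 4 of the 6 members, Zscan4b, Zscan4c, Zscan4d and Zscan4f. The 250 bases before each start are shown because they hold the letters that the 4 copies share, with capitals at the 12 of 216 aligned positions that differ among them. Their positions are chr7:10905051-10905300 on the minus strand for Zscan4b, chr7:11005495-11005744 on the plus strand for Zscan4c, chr7:11166149-11166398 on the minus strand for Zscan4d and chr7:11397665-11397914 on the plus strand for Zscan4f.
Zscan4b: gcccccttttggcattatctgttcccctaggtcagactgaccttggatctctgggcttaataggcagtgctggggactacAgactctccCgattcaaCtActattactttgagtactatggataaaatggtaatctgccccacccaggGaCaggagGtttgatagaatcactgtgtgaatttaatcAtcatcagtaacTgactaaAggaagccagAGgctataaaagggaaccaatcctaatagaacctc
Zscan4c: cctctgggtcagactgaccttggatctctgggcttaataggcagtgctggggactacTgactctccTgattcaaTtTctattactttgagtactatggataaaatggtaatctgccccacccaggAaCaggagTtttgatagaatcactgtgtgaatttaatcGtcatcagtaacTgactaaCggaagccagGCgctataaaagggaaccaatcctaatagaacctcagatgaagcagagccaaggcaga
Zscan4d: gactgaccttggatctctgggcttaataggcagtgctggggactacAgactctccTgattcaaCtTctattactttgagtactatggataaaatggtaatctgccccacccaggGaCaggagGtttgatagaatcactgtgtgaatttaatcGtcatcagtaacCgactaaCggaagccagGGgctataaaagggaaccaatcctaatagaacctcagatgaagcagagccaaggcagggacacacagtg
Zscan4f: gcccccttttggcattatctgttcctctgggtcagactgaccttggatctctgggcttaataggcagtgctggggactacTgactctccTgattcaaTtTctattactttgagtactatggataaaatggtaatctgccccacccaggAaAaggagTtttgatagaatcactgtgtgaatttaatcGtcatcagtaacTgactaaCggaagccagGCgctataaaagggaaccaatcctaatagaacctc
Zscan4c and Zscan4f differed at 1 of the 216 positions (99.5% identity), and Zscan4b and Zscan4f at 11 (94.9%). The letters TATAAA were present in 4 of 4, beginning at -31 in Zscan4b and Zscan4f, at -54 in Zscan4c and at -65 in Zscan4d. They were found on either strand in 12.37% of 32851 RefSeq start regions of the same length. The letters TGATT followed after any 2 bases by ATCA, a facing pair of the kind that double homeobox factors are known to bind, were also present once in 4 of 4, on the strand opposite to the one printed, where they read TGAT, 2 bases, AATCA. This compares with 0.18% of all start regions on either strand. The 4 regions are near-identical copies (94.9 to 99.5% identity), so a match in 4 of 4 is not 4 independent matches and no enrichment can be read from it. TGATT followed after any 1 base by AATCA, added once the sequences had been seen, was in 0 of 4 (0.03% of all), and TAATCC, a homeodomain motif, in 0 of 4 (6.25% of all). The first of these pairs includes every match of the second, and a match describes letters only.

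At the 2-cell stage the cluster was detected in every library, at levels that varied widely from embryo to embryo. The summed level in intact 2-cell embryos 1 to 5 was 185, 660, 384, 246 and 78.4 CPM. The mean was 311 ± 225 CPM (SD, n = 5), and the highest embryo, embryo 2, stood far above the lowest, embryo 5. In separated 2-cell embryos 1 to 5 the sum was 127, 286, 104, 93.5 and 512 CPM, with a mean of 224 ± 179 CPM (SD, n = 5). The ranges of intact and separated embryos overlapped almost fully. Counting error was small beside this spread: the exact binomial 95% interval of the highest intact embryo ran from 642 to 679 CPM, and that of the lowest from 72.02 to 85.1 CPM. Such intervals cover counting error only.

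At the 4-cell stage little was left. The sum in intact 4-cell embryos 1, 3, 4 and 5 was 1.60, 0.365, 4.05 and 15.7 CPM, a mean of 5.43 ± 7.02 CPM (SD, n = 4). It rested on 83 counts in all, of which 59 lay in embryo 5, and without that embryo the mean was 2.00 CPM. In separated 4-cell embryos 2, 3, 4, 6 and 7 the sum was 0.949, 7.98, 0.843, 5.65 and 0.714 CPM, a mean of 3.23 ± 3.38 CPM (SD, n = 5). Without embryo 3 this mean was 2.04 CPM, and the 3 embryos of batch 1 gave 3.26 CPM against 3.18 CPM for the 2 of batch 2. Every 2-cell embryo was above every 4-cell embryo, intact or separated. Pooled over embryos, the 2-cell sum was 54.5-fold the 4-cell sum in intact embryos (95% counting interval 43.9 to 68.4) and 54.8-fold in separated embryos (51.1 to 58.9). These intervals do not cover the spread between embryos: the ratio was 139-fold without intact 4-cell embryo 5 and 115-fold without separated 4-cell embryo 6, whose removal left 212 of the 795 counts. With other embryos left out it ran from 41.3 to 63.3-fold in intact and from 37.4 to 66.6-fold in separated embryos.

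**Figure D1:**
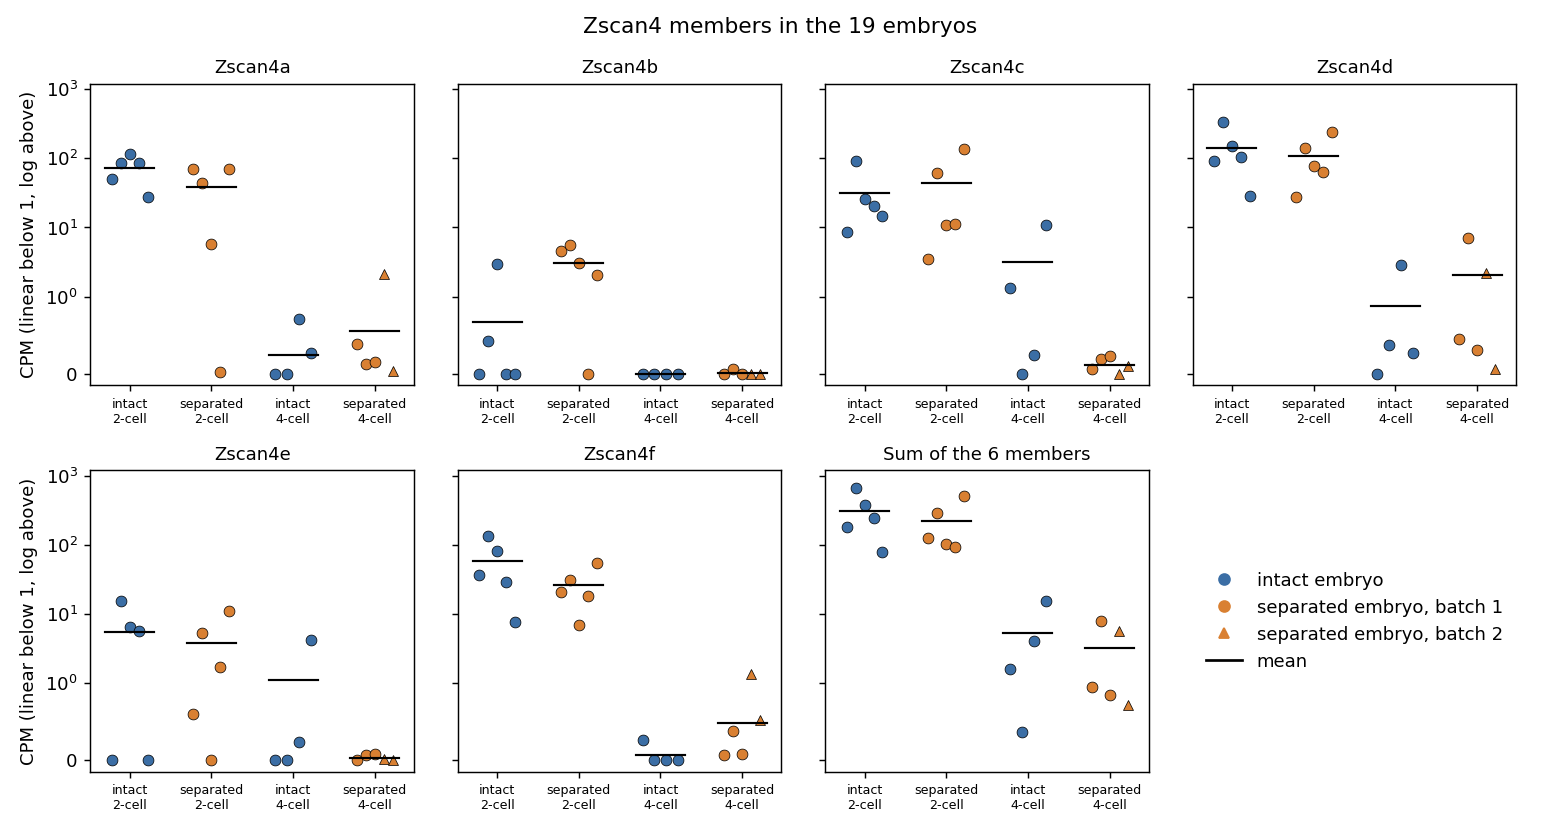
Level of each Zscan4 member and of their sum in the 19 embryos, in CPM on an axis that is linear below 1 and logarithmic above. Points are embryos (triangles: separated 4-cell embryos of batch 2) and bars are group means. The 10 2-cell embryos lie between 78.4 and 660 CPM in the sum, and the 9 4-cell embryos between 0.365 and 15.7 CPM.

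Zscan4d, which codes for a full-length protein, had the highest level at the 2-cell stage. In intact 2-cell embryos 1 to 5 it was at 90.7, 332, 152, 106 and 28.4 CPM. At the 4-cell stage intact embryos 1, 3, 4 and 5 had 0, 0.365, 2.86 and 0.266 CPM, so the stages did not overlap. The pooled 2-cell level was 146-fold the 4-cell level (95% counting interval 86.8 to 267), but 12 of the 14 counts at the 4-cell stage lay in embryo 4. The edgeR quasi-likelihood test, with Benjamini-Hochberg adjustment over 14119 genes, gave a log2 fold change of -7.39 ± 1.45 (SE) and an adjusted p of 0.00288. Without 4-cell embryo 4 the log2 fold change was -9.72, and without 2-cell embryo 2 it was -6.68.

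Zscan4f, the member nearest to Zscan4c in sequence, was at 36.3, 136, 82.0, 29.0 and 7.68 CPM in intact 2-cell embryos 1 to 5. Only 1 count remained over the 4 intact 4-cell embryos, in embryo 1 (0.266 CPM). The other intact 4-cell embryos had none, where 3 counts would have been 0.715 to 1.10 CPM. Its log2 fold change was -9.77 ± 1.46, with an edgeR adjusted p of 0.000316, and without 2-cell embryo 2 it was -9.07. The 95% counting interval of its pooled ratio, 152 to 33514, shows how little 1 count fixes the size of the fall.

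Zscan4a, the annotated pseudogene at the end of the cluster, fell with them. It was at 49.6, 86.4, 114, 84.8 and 27.8 CPM in intact 2-cell embryos and at 0, 0, 0.715 and 0.266 CPM in intact 4-cell embryos. The groups did not overlap, and 4 counts remained at the 4-cell stage. The log2 fold change was -8.15 ± 1.79 (edgeR adjusted p = 0.0066), and without 4-cell embryo 4 it was -9.73 (adjusted p = 0.0135). With limma voom the adjusted p was 0.0762. This call thus rested on the choice of test.

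Zscan4c, which codes for a full-length protein, did not pass the test in intact embryos. Its intact 2-cell levels were 8.62, 89.9, 26.1, 20.5 and 14.5 CPM, with embryo 2 far above the others. Its intact 4-cell levels were 1.33, 0, 0.238 and 10.9 CPM, and embryo 5 reached into the 2-cell range. The log2 fold change was -3.58 ± 1.44 (edgeR adjusted p = 0.11). Without 4-cell embryo 5 it was -6.13 with an adjusted p of 0.0452, and DESeq2 on all embryos gave an adjusted p of 0.0095.

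Zscan4e and Zscan4b, the shorter pair, had low levels throughout. Zscan4e had no count in intact 2-cell embryos 1 and 5, and 15.3, 6.57 and 5.65 CPM in embryos 2, 3 and 4. Its highest intact 4-cell value, 4.26 CPM, lay again in embryo 5, and its log2 fold change was -2.52 ± 2.19 (edgeR adjusted p = 0.499). Zscan4b had a count in 2 of the 5 intact 2-cell embryos, 0.417 CPM in embryo 2 and 2.93 CPM in embryo 3, and none in intact 4-cell embryos. With 3 counts set for that group, its 2-cell level was at least 3.83-fold higher, and the edgeR adjusted p was 0.179.

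In intact embryos 3 of the 6 members, Zscan4a, Zscan4d and Zscan4f, were thus called lower at the 4-cell stage and none higher, while 4.99% of the 14119 genes tested were called lower and 5.41% higher. The same 3 were those whose embryos did not overlap, which held for 7.1% of all genes in that direction. Of the pseudogenes, Zscan4-ps3 was also lower (edgeR adjusted p = 0.0188), whereas Zscan4-ps1 (0.0814) and Zscan4-ps2 (0.101) missed the threshold. In data simulated for this comparison, the test recovered 12% of genes changed 16-fold and 20% of those changed 64-fold. The changed genes were drawn at random from all genes tested, at their own levels and spread. These shares are therefore not those for genes at the levels of the members. A member that was not called may still have fallen by a large factor.

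Separated embryos gave falls in Zscan4a, Zscan4c, Zscan4d and Zscan4f, so that 4 of the 6 members were called lower, against 4.7% of all genes, and none higher, against 6.4%. Zscan4f was at 21.0, 30.8, 6.93, 18.2 and 55.7 CPM in separated 2-cell embryos 1 to 5 and at 0.0632, 0.386, 0.0767, 1.36 and 0.530 CPM in 4-cell embryos 2, 3, 4, 6 and 7. Its groups did not overlap, and the log2 fold change was -7.24 ± 1.41 (edgeR adjusted p = 0.00315). This value is for the 4-cell level of batch 1, because batch was a term of the fit, and without 4-cell embryo 3 it was -8.49.

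Zscan4d fell from 27.8, 140, 77.1, 62.5 and 238 CPM in separated 2-cell embryos to 0.443, 7.14, 0.307, 2.18 and 0.0576 CPM in 4-cell embryos. The log2 fold change was -5.43 ± 1.46 (edgeR adjusted p = 0.0235), and no 4-cell embryo reached the lowest 2-cell embryo. Without 4-cell embryo 3 it was -8.16 (adjusted p = 0.014). Zscan4c was at 3.47, 60.4, 10.9, 11.1 and 135 CPM at the 2-cell stage and at 0.0632, 0.193, 0.230, 0 and 0.0921 CPM at the 4-cell stage. Its log2 fold change was -8.06 ± 2.06 (edgeR adjusted p = 0.018), again without overlap, and without 2-cell embryo 5 it was -7.17 (adjusted p = 0.0363). These 3 members were those without overlap, which held for 6.93% of all genes.

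Zscan4a differed from them in that 1 separated 2-cell embryo had almost none of it. It was at 69.5, 44.2, 5.78, 0.0178 and 70.6 CPM in separated 2-cell embryos 1 to 5, where embryo 4 had 1 count of 56.22 M. In 4-cell embryos it was at 0.380, 0.129, 0.153, 2.09 and 0.0346 CPM, so the groups overlapped through embryo 4. The log2 fold change was -7.37 ± 1.93 (edgeR adjusted p = 0.0203), and without 4-cell embryo 2 it was -8.11 (adjusted p = 0.0515).

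The calls of Zscan4a, Zscan4c and Zscan4d depended on single 4-cell embryos of the separated group. Without embryo 2, 3 or 4, the edgeR adjusted p was 0.0515, 0.0703 and 0.0772 for Zscan4a and 0.0653, 0.0593 and 0.0612 for Zscan4c. For Zscan4d it was 0.078 without embryo 2 and 0.0831 without embryo 4.

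Zscan4b (edgeR adjusted p = 0.149) and Zscan4e (0.183) were not called in separated embryos. Zscan4b was at 4.55, 5.49, 3.09, 0 and 2.04 CPM in separated 2-cell embryos and had 1 count over the 20 4-cell blastomeres. Zscan4e was at 0.601, 5.37, 0, 1.73 and 11.2 CPM, with 4 counts at the 4-cell stage. The pseudogenes Zscan4-ps2 and Zscan4-ps3 were called lower (edgeR adjusted p of 0.0251 and 0.0332), and Zscan4-ps1 was not (0.0531).

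The separated count rested on few 4-cell embryos of batch 1. Without embryo 2 or embryo 4 it dropped to 1 member, Zscan4f, without embryo 3 to 2, and with limma voom or a fit of the compared groups alone to 2. The call of Zscan4f held in all 22 alternatives. Whether the stage difference itself differed between intact and separated embryos was tested as an interaction, which called 0 of the 6 members and 0% of all genes with edgeR, and 0 members with DESeq2 and limma voom. Without adjustment Zscan4c alone had p under 0.05, 0.0416 (log2 difference -4.48 ± 2.05, edgeR adjusted p = 0.545).

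**Figure D2:**
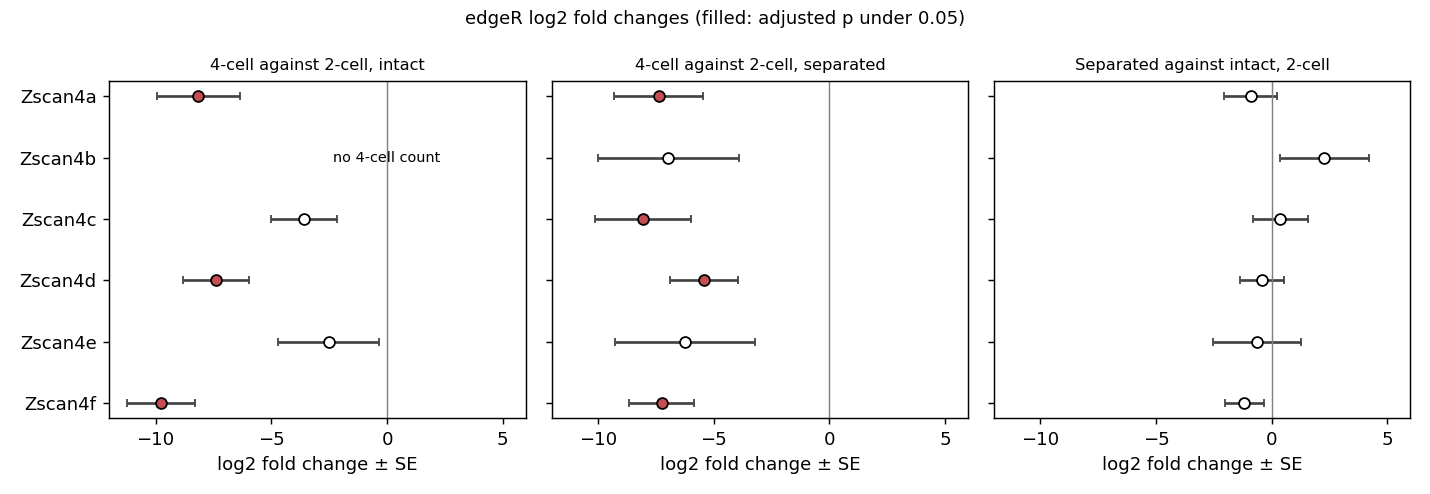
edgeR log2 fold changes with their SE for the 6 members, for the 4-cell against the 2-cell stage in intact and in separated embryos and for separated against intact 2-cell embryos. Filled points have an adjusted p under 0.05: 3 members in intact embryos, 4 in separated embryos and 0 for separation.

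Separation itself called 0 of the 6 members at the 2-cell stage, where 0.0142% of all genes were called by edgeR, and 0 members had an unadjusted p under 0.05. DESeq2 and limma voom also called 0. The embryos of all 6 members overlapped, as did those of all but 0.552% of genes. Zscan4f had the smallest p, 0.178, with a log2 difference of -1.18 ± 0.84. It averaged 58.2 ± 51.2 CPM in intact and 26.5 ± 18.4 CPM in separated 2-cell embryos (SD, n = 5 each). Zscan4d averaged 142 ± 115 CPM and 109 ± 82.6 CPM, a log2 difference of -0.43 ± 0.96, and its sign turned without intact embryo 2. For Zscan4a the log2 difference was -0.90 ± 1.14, for Zscan4b 2.28 ± 1.92, for Zscan4c 0.37 ± 1.18 and for Zscan4e -0.63 ± 1.89. The standard errors leave room for differences of several fold in either direction for most members.

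At the 4-cell stage separation also called 0 of the 6 members (0% of all genes by edgeR), as did DESeq2 and limma voom, and embryos overlapped for all 6 (2.37% of genes did not). Of the 6, 1 member, Zscan4c, had an unadjusted p under 0.05 (0.0295, edgeR adjusted p = 0.801), with a log2 difference of -4.10 ± 1.75. Its intact level there was carried by embryo 5. The difference between the batches of separated 4-cell embryos called 0 of 6 members with edgeR, adjusted or not (adjusted p from 0.543 to 0.853), while 2.03% of all genes were called.

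Counts were not divided equally among the members. Divided by transcript length, Zscan4d came first with 62.5 ± 50.8 CPM per kb in intact 2-cell embryos (SD, n = 5). Zscan4a (31.8 ± 14.9) and Zscan4f (31.8 ± 28.01) followed at the same mean level, then Zscan4c (14.0 ± 14.5), Zscan4e (3.15 ± 3.59) and Zscan4b (0.377 ± 0.718). The spreads of neighbours in this order overlapped. Division by length does not correct for sequence shared between transcripts. Among the members, Zscan4d and Zscan4a shared the smallest parts of their 50-base windows with another transcript (49.6 and 63.6%). Zscan4b and Zscan4e, the lowest, shared 90.3 and 91.6%, but Zscan4f shared the most, 95.3%, and stood level with Zscan4a. How far the order reflects shared sequence was not tested. Within each embryo the order was steadier: Zscan4d was first in 5 of 5 intact embryos, with 35.4 to 47.7% of the length-corrected sum.

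In separated 2-cell embryos Zscan4d was first in 4 of 5, with 20.8 to 72.5% of the length-corrected sum. Zscan4a was first in embryo 1, at 52.0%, and held 0.02% in embryo 4. Among single blastomeres Zscan4d was first in 7 of 10. The exceptions were both blastomeres of embryo 1, where Zscan4a held 56.0 and 38.0%, and blastomere 1 of embryo 2, where Zscan4f held 46.3%. Embryo 1 thus had its unusual make-up in both sisters, and the near absence of Zscan4a in embryo 4 (0.05 and 0%) was also shared by both.

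**Figure D3:**
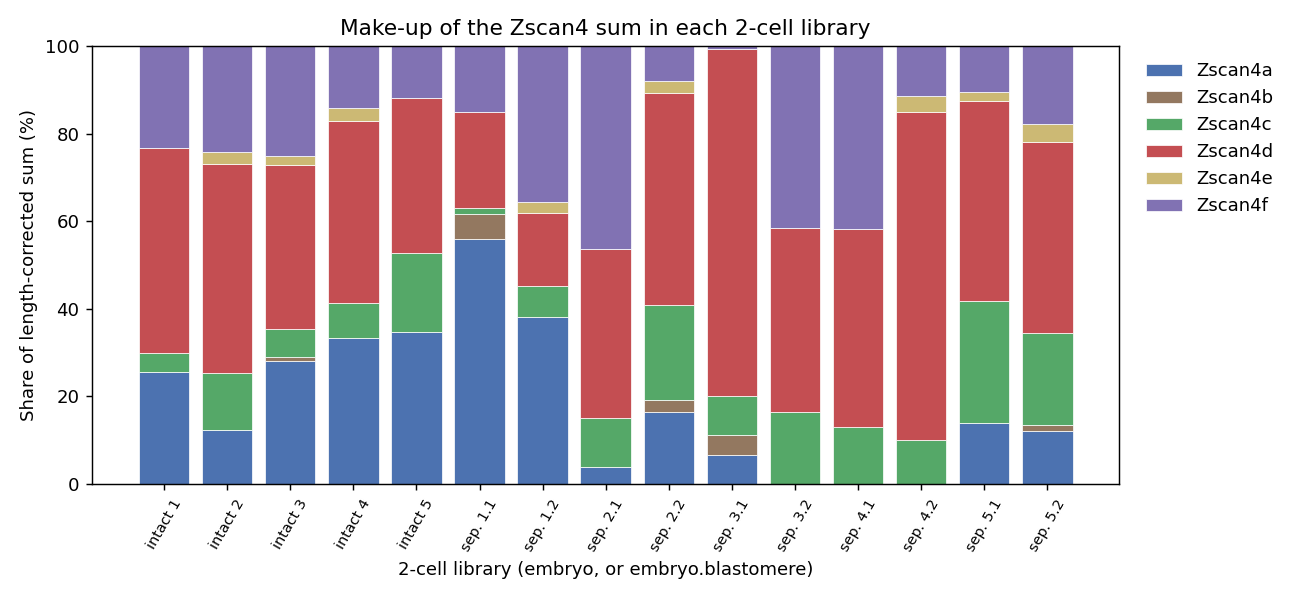
Share of each member in the length-corrected Zscan4 sum (%) in the 5 intact 2-cell embryos and the 10 separated 2-cell blastomeres. Zscan4d is the largest piece in every intact embryo, Zscan4a in both blastomeres of separated embryo 1, and Zscan4a is close to 0 in both of embryo 4. Shares are not corrected for sequence shared between transcripts.

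**Figure D4:**
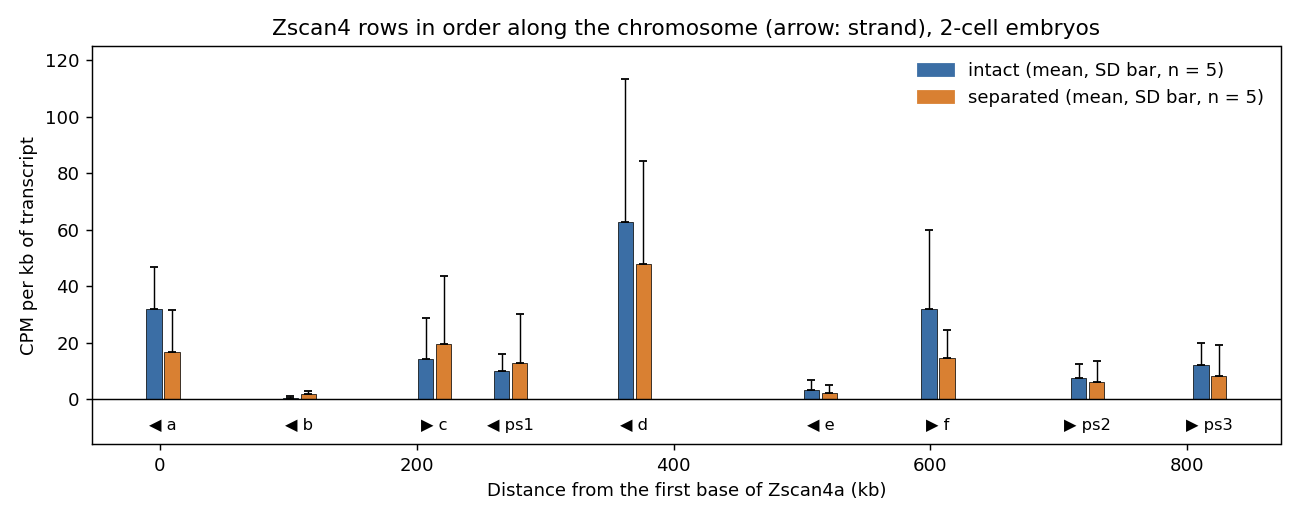
Mean level of the 6 members and the 3 pseudogenes at the 2-cell stage, in CPM per kb of transcript with SD bars (n = 5 embryos per group), against the distance of each gene from the first base of Zscan4a in kb. Arrows give the strand, and the highest bars, those of Zscan4d, stand inside the cluster with low genes on either side. Levels are not corrected for sequence shared between transcripts.

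Across the 10 2-cell embryos, the levels of Zscan4c, Zscan4d, Zscan4e and Zscan4f were correlated. Pearson correlations of log2(CPM + 1) were 0.851 for Zscan4c with Zscan4d, 0.837 for Zscan4c with Zscan4e, 0.832 for Zscan4d with Zscan4e, 0.816 for Zscan4e with Zscan4f, 0.801 for Zscan4d with Zscan4f and 0.614 for Zscan4c with Zscan4f. Over the 15 single 2-cell libraries those of Zscan4f were lower, at 0.376 with Zscan4d and 0.45 with Zscan4c, while Zscan4c with Zscan4d was at 0.831. Zscan4a correlated at 0.341 with Zscan4c and at 0.578 with Zscan4f, and more with the pseudogene Zscan4-ps2 (0.801). Zscan4b stood apart, at 0.037 to 0.228 with the other members. Correlated members share libraries and, to the extent given above, sequence.

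The pseudogene Zscan4-ps1 had a pattern of its own. It was at 30.9, 21.6, 27.3 and 21.0 CPM in intact 2-cell embryos 1, 3, 4 and 5 and at 0.139 CPM in embryo 2, the embryo with the highest Zscan4 sum. In separated embryos it was at 56.8 and 45.2 CPM in the blastomeres of embryo 3 and at 81.6 and 65.9 CPM in those of embryo 5. In embryos 1 and 2 its blastomeres had 0.0521 to 1.35 CPM, and in embryo 4 they had 4.70 and 0 CPM. Its edgeR adjusted p for differences between embryos was 0.585. Its correlation with Zscan4d over the 10 embryos was 0.016.

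Sister blastomeres of 1 embryo differed in the sum by factors from 1.04 to 6.18. In embryo 1 the blastomeres had 128 and 123 CPM, and in embryo 5 they had 575 and 424 CPM. In embryo 2 they had 151 and 326 CPM, a ratio of 2.15. In embryo 3 the blastomeres had 189 and 32.6 CPM (ratio 5.82), and in embryo 4 they had 44.1 and 273 CPM (ratio 6.18). Every 2-cell blastomere had at least 403 counts of the cluster, and the exact 95% counting intervals of the sisters overlapped in embryo 1 alone. The absolute log2 difference of the sum was 0.057, 1.104, 2.522, 2.615 and 0.44 in embryos 1 to 5. For genes with a mean of 20 to 200 CPM its median was 1.10, 1.18, 1.28, 1.10 and 0.895. Sisters thus differed less in the sum than in the median gene in embryos 1, 2 and 5, and more in embryos 3 and 4. The sum averaged 227 CPM, above that band, and this was not tested.

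Members of the cluster did not all follow the sum. In embryo 3, Zscan4d was at 152 and 14.9 CPM in blastomeres 1 and 2, Zscan4a at 12.7 and 0 CPM, and Zscan4f went the other way, at 0.972 and 11.9 CPM. In embryo 2, Zscan4a was at 6.53 and 55.3 CPM and Zscan4d at 64.1 and 162 CPM, while Zscan4f was again opposite, at 61.9 and 21.7 CPM. In embryo 4, Zscan4d was at 21.7 and 210 CPM and Zscan4e at 0 and 7.97 CPM. Zscan4f was also opposite in embryo 1, at 16.2 and 38.0 CPM beside 29.3 and 22.3 CPM of Zscan4d, and in embryo 5, at 50.1 and 63.6 CPM beside 270 and 193 CPM. The blastomere with more Zscan4d therefore had less Zscan4f in 4 of the 5 embryos, and more in embryo 4, a pattern that was not tested.

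Zscan4b, and Zscan4e in some embryos, had nearly all counts in 1 of the sisters. Zscan4b had 196 counts and 1 count in the blastomeres of embryo 1, 0 and 273 in embryo 2, 70 and 0 in embryo 3, and 1 and 28 in embryo 5. Zscan4e had 1 and 25 counts in embryo 1, 0 and 267 in embryo 2, and 0 and 97 in embryo 4, while in embryo 5 the sisters were closer, at 75 and 85 counts, and in embryo 3 there was none. The median absolute log2 difference of the 6 members between sisters was 1.66, 2.46, 3.19, 1.38 and 0.63 in embryos 1 to 5. Over 3759 genes with a mean of 20 to 200 CPM the corresponding medians were 1.10, 1.18, 1.28, 1.10 and 0.895. This is a description in which the members differ in level from one another. Zscan4b and Zscan4e averaged 2.47 and 4.09 CPM over the 10 blastomeres, below that band, so the members and these genes are not alike in level.

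Whether blastomeres of 1 embryo were more alike than blastomeres of different embryos was tested with the embryo as a factor among the 10 2-cell blastomeres. edgeR called 0 of the 6 members, with adjusted p from 0.585 to 0.809, and 0% of 11996 genes. Without adjustment 0 of the 6 had p under 0.05 (6.84% of all genes), the smallest being 0.0597 for Zscan4a and 0.0758 for Zscan4c. DESeq2 called 2 of the 6 members and limma voom 1. The share of all genes that these tools called is not given here, so their counts cannot be set against it.

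Among the 20 4-cell blastomeres 15 had at least 1 count of the cluster and 5 had none. Those without were blastomeres 1, 2 and 3 of embryo 4, blastomere 1 of embryo 6 and blastomere 1 of embryo 7, where 3 counts would have been 0.095 to 1.25 CPM. Most of what remained lay in a few cells. In embryo 3, blastomere 1 had 98 counts (25.5 CPM), all of Zscan4d, and blastomere 4 had 22 counts (7.48 CPM) spread over all 6 members. Blastomeres 2 and 3 of that embryo had 3 counts and 1 count.

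Embryo 6 held its counts in blastomeres 2 and 3, at 7.85 and 13.8 CPM. In blastomere 2 these were 113 counts of Zscan4f, 67 of Zscan4d and 44 of Zscan4a, and in blastomere 3 they were 172 of Zscan4a, 157 of Zscan4d and 19 of Zscan4f. Blastomere 4 of the same embryo had 11 counts and blastomere 1 had none in 22.40 M. In embryo 7, all 46 counts of blastomere 4 were of Zscan4f, and blastomere 2, the shallowest library at 2.02 M counts, had 8 of Zscan4c and 3 of Zscan4a. The other 7 libraries of embryos 6 and 7 held 22.40 to 31.58 M counts, against 2.40 to 5.23 M in batch 1, so a low level was easier to detect in them. The highest 4-cell blastomere, at 25.5 CPM, was below the lowest 2-cell blastomere, at 32.6 CPM.

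**Figure D5:**
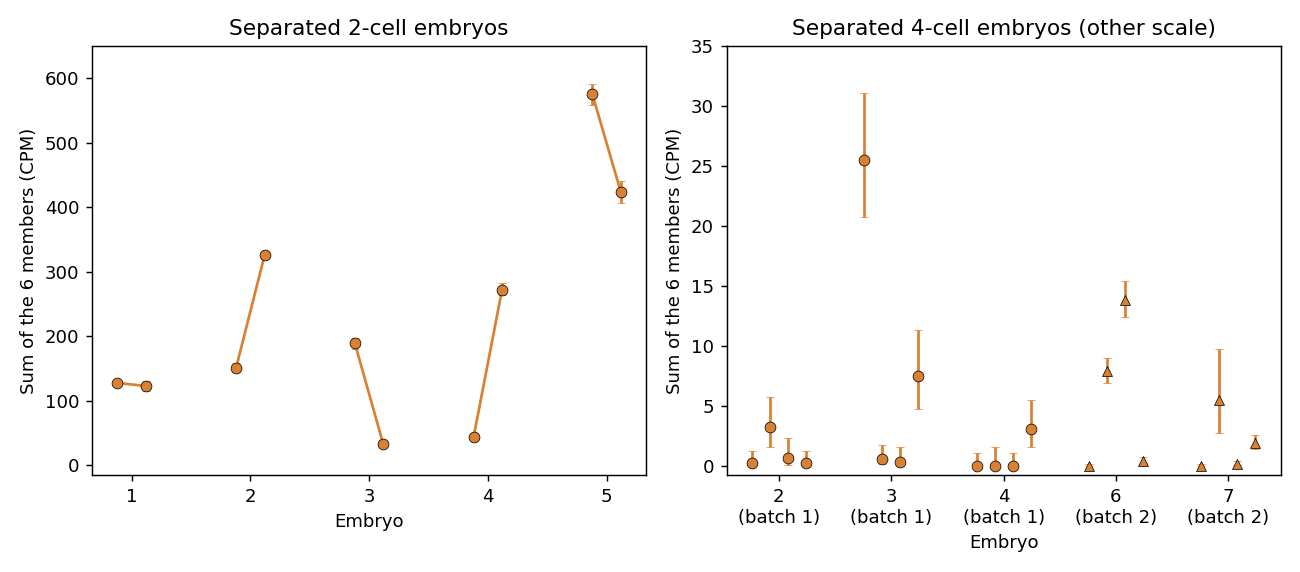
Summed Zscan4 level (CPM) in single blastomeres of separated 2-cell embryos (left, sisters joined by a line) and 4-cell embryos (right, on another scale, triangles for batch 2), with exact binomial 95% intervals that cover counting error. Sisters differ from 1.04 to 6.18-fold at the 2-cell stage, and at the 4-cell stage most of the level lies in blastomeres 1 and 4 of embryo 3 and blastomeres 2 and 3 of embryo 6.

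Some genes known to be transcribed at the 2-cell stage with Zscan4 were also lower at the 4-cell stage. Of 29 tested, 11 were called lower in intact embryos (4.99% of all genes) and 15 in separated embryos (4.7% of all genes), with none higher. The median log2 fold change was -3.10 in intact embryos, against 0 for all genes, and -4.45 in separated embryos, against -0.152. Values above 0 that did not pass the test in intact embryos were those of Tdpoz2 (3.53), Tdpoz4 (1.60), Sp110 (1.06), Spz1 (0.99) and Eif1a (0.78). Rfpl4b, a RING finger gene, averaged 1034 ± 167 CPM (scaled by TMM, SD, n = 5) in intact 2-cell and 6.76 ± 3.96 CPM (n = 4) in intact 4-cell embryos (edgeR adjusted p = 1.66e-06). The homeobox gene Obox3 averaged 498 ± 145 and 6.20 ± 4.73 CPM (edgeR adjusted p = 5.81e-05). Gm5662 and Gm8300 were called lower as well (edgeR adjusted p of 0.00152 and 0.00177).

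Between intact 2-cell embryos the SD was 167 CPM on a mean of 1034 CPM for Rfpl4b and 145 on 498 for Obox3. For the Zscan4 sum it was 225 on 311. Other genes of the list also varied widely, among them AF067061 (183 on 166), Tcstv1 (63.1 on 66.1), Usp17lb (129 on 152) and Gm5662 (372 on 538). Single genes were scaled by TMM and the sum by total counts, and the comparison was not tested. Over the 10 2-cell embryos, correlations of 23 genes of the list with the Zscan4 sum ran from -0.499 (AF067063) to 0.711 (Zfp352), with a median of 0.412 against -0.013 for all genes. Usp17lb, a deubiquitinase gene, had 0.703 and Rfpl4b 0.639.

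The genes whose level followed the Zscan4 sum most closely over these 10 embryos, among 5719 ranked, were from outside that list. They were Dph6, of diphthamide synthesis (r = 0.932), Nlrp4f, an oocyte NLR family gene (0.915), Plpp1, a phospholipid phosphatase (0.905), Cnot6l, a deadenylase of maternal mRNA (0.885), Mgat4c, a glycosyltransferase (0.88), the ligand Tgfb2 (0.88), Khdc1a (0.875) and the calcium pump gene Atp2a2 (0.874). Of these 8, Spearman correlation kept 5 among the first 8, and single 2-cell libraries kept 1, Mgat4c. The correlations share 10 embryos of 2 kinds and describe these libraries.

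Known activators and repressors of the 2-cell programme were called in both directions. Of 16 tested, 2 were called higher and 0 lower by edgeR in intact embryos, where 5.41% of all genes were higher and 4.99% lower (4 of the 16 had an unadjusted p under 0.05, median log2 fold change 0.39). In separated embryos 1 was called higher and 2 lower (6.4% and 4.7% of all genes, median -0.05). Dppa2, an upstream activator, was higher at the 4-cell stage, at 156 ± 91.3 CPM in intact 2-cell and 698 ± 90.8 CPM in intact 4-cell embryos (edgeR adjusted p = 0.00202, and 0.0276 in separated embryos). Trim28, a corepressor that silences repeats, rose in intact embryos from 20.3 ± 7.20 to 104 ± 9.08 CPM (edgeR adjusted p = 0.00254). In separated embryos Pcgf6, a subunit of a Polycomb complex (edgeR adjusted p = 0.0199), and the T-box gene Tbx3 (0.0418) were called lower. Duxf3, a gene of the Dux family, had no count in any group.

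Of 15 telomere and recombination genes tested, 2 were called higher in intact 4-cell embryos (5.41% of all genes), among them the telomere-binding gene Pot1a (0.433 ± 0.396 to 23.6 ± 13.4 CPM, edgeR adjusted p = 0.0214). In separated embryos 0 of the 15 were called by edgeR (1 at an unadjusted p under 0.05). Of 7 other Zscan genes tested, 0 were called in intact or separated embryos by edgeR (1 and 2 unadjusted, medians 0.18 and 1.10). Zscan5b was the most abundant of them in intact 2-cell embryos, at 107 ± 51.5 CPM, and stood at 116 ± 46.0 CPM in intact 4-cell embryos. Separation called 0 of the 67 genes of these 4 lists at either stage by edgeR (6 at the 2-cell and 8 at the 4-cell stage unadjusted).

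Markers of cells that an embryo library could also hold were called in no comparison by edgeR. Of the lists, 2 cumulus and granulosa, 3 blood, 1 sperm and 3 oviduct markers were deep enough to test. Unadjusted p was under 0.05 for 0 of these 9 by stage in intact embryos, 1 by stage in separated embryos, 3 by separation at the 2-cell stage and 1 at the 4-cell stage. Summed cumulus and granulosa markers were at 4.25 to 47.8 CPM in intact 2-cell and 9.32 to 20.8 CPM in intact 4-cell embryos, and Foxl2, Fshr and Cyp19a1 had no count in either. Blood markers were at 8.12 to 34.4 and 1.86 to 20.8 CPM, with no count of Ptprc or Hbb-bs. Sperm markers were at 0 to 25.6 and 0 to 3.73 CPM, with no count of Prm1. Oviduct markers were at 8.89 to 135 and 23.95 to 68.7 CPM, with no count of Foxj1. Other markers of these lists were detected in intact 2-cell embryos. Their means, scaled by TMM, were 54.9 CPM for Epcam, 22.1 for Amhr2, 11.9 for Hba-a1, 11.4 for Cd52 and 9.20 for Prm2. Foxl2, Fshr, Cyp19a1, Ptprc and Hbb-bs had counts in separated 4-cell embryos, and Foxj1 had counts in separated 2-cell embryos. The part of such cells in the Zscan4 values was not tested.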

How the data were processed

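RNA sequencing was done on 39 libraries of wild-type mouse embryos or blastomeres. The submitters' processing notes list Trim Galore 0.6.10, the aligner STAR 2.7.3a, the quantifier RSEM 1.2.28 and the build GRCm38. Values deposited by the authors are expected counts for each gene, an estimate that can divide reads among similar genes. Of the non-zero values, 12.65% were not whole, none of them in the 9 Zscan4 rows, and all were rounded. Strandedness and annotation are not given in the sources used here.

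Blastomere libraries were added up by embryo (19 embryos). The edgeR 4.0.16 quasi-likelihood test used TMM scaling, filterByExpr (14119 genes, all 6 members), 4 groups and batch as terms and Benjamini-Hochberg adjustment at 0.05. Standard errors were derived from the log2 fold change and its F statistic. Only separated 4-cell embryos are in batch 2, so their fitted level is that of batch 1. The embryo factor was tested on 10 2-cell blastomeres. CPM is per total counts, or TMM-scaled for other single genes, and sisters were compared on log2(CPM + 0.5). The sum of the members was given no test.

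Gene models came from GENCODE M21, and start regions from RefSeq (GRCm38.p6), which matched 4 members. Named genes are the 6 members, the Zscan4 pseudogenes, the 8 genes of mean CPM of at least 10 and non-predicted symbol that correlated most with the sum, and up to 4 genes per list and stage contrast by smallest p. The result of 1 gene of a list is not reported here. Members and lists were chosen with earlier results of these data known. Alternatives were DESeq2 1.42.0 and its size factors, limma 3.58.1 voom, no count filter or a stricter one, compared groups alone, a replicate block, no batch term, batch 2 left out, thinned totals, blastomeres as libraries, unrounded values and each embryo left out. The edgeR test was checked on simulated data. Software was R 4.3.3 and Python 3.11.15 with Biopython 1.88, scipy 1.17.1, matplotlib 3.10.9, pandas 2.3.3 and numpy 2.4.6.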

Additional observations from a re-analysis of the deposited data

Results flagged for a closer look

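Of 27 groups of 4 or 5 embryos examined with Dixon's test at 95%, 8 held an embryo far from the others of its group. For normally distributed values chance gives such an embryo in about 1 of 20 groups. Low counts with many zeros need not follow that rate, so the 8 cannot be set against it. Where only 1 embryo has a count, it is always flagged, as for Zscan4f in intact and Zscan4b in separated 4-cell embryos. Members also share embryos and sequence. Among intact 2-cell embryos, embryo 3 had 2.93 CPM of Zscan4b where the others had 0 to 0.417 CPM, and embryo 2 had 89.9 CPM of Zscan4c where the others had 8.62 to 26.1 CPM. Among intact 4-cell embryos, embryo 5 stood apart in Zscan4c (10.9 CPM, 41 counts, others up to 1.33 CPM) and in Zscan4e (4.26 CPM, 16 counts, others up to 0.238 CPM). Intact 4-cell embryo 4 stood apart in Zscan4d (2.86 CPM, 12 counts, others up to 0.365 CPM), and embryo 1 in Zscan4f, where 0.266 CPM is 1 count and the others had none. Separated 4-cell embryo 6, of batch 2, had 2.09 CPM of Zscan4a (216 counts) where the others had 0.0346 to 0.380 CPM. Separated 4-cell embryo 3 had 0.0643 CPM of Zscan4b, which is 1 count, where the others had none.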

How the results depend on the processing

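The calls of Zscan4d and Zscan4f in intact embryos held in all 21 alternatives, and that of Zscan4f in separated embryos in all 22. The intact count of 3 members was 2 with limma voom and 4 with DESeq2, and 3 to 4 with 1 embryo left out. The separated count of 4 members was 2 with limma voom, 2 with the compared groups alone, 5 with DESeq2 and 5 with no batch term, and ranged from 1 to 4 with 1 embryo left out (1 without separated 4-cell embryo 2 or 4, 2 without embryo 3). The separated call of Zscan4a was lost in 6 alternatives, that of Zscan4d in 4 and that of Zscan4c in 3, and the cause was not tested. Embryo differences among 2-cell blastomeres called 2 members with DESeq2 and 1 with limma voom, against 0. The share of all genes called in each alternative is not given here, so these counts of members cannot be set against it. Means of blastomere CPM, an alternative chosen after seeing the data, gave sums of 227 and 3.54 CPM in separated 2-cell and 4-cell embryos. Leaving out each embryo from the pooled stage ratios was also added then. Separation and interaction called 0 members in every alternative run.

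Differences by separation that were not called changed sign. At the 2-cell stage Zscan4c (0.37) was -0.29 with limma voom, -0.43 with the replicate block and -0.62 with each blastomere as a library, and ranged from -0.59 to 1.41 with 1 embryo left out, as did Zscan4d from -0.90 to 0.29 and Zscan4e from -1.54 to 0.38. At the 4-cell stage Zscan4a (-0.12) was 0.91 with no batch term and -0.86 to 1.36 with 1 embryo left out, Zscan4d (1.54) was -1.17 to 3.79, and Zscan4f (1.36) was -0.076 with limma voom. The interaction of Zscan4d (1.96) was -0.70 to 4.25. The cause was not tested.

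With the replicate block 3 members were called in intact and 3 in separated embryos, where Zscan4a had an adjusted p of 0.0596. The numbers did not pair embryos: over 21 same-numbered pairs the correlation of deviations was -0.089 to 0.053, and 1 of 17 embryos correlated best with its own number. Depth limits low values: 3 counts are 0.715 to 1.10 CPM in an intact 4-cell embryo.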
